A study of Mus musculus with 6 samples.

Results

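The genes described here encode 10 heat shock proteins: Hspa1a, Hspa1b, Hspa8, Hsp90aa1, Hsp90ab1, Dnajb1, Hsph1, Hspb1, Hspe1 and Hspd1. They were chosen by symbol, through the GENCODE M21 names of the Ensembl identifiers in a table of 46078 genes. All 10 were found in it, and all 10 were among the 17605 genes with a mean value of at least 10 that were tested. They were measured by RNA-seq in the striatum of 12-week-old male mice, with 3 WT mice and 3 Shank3 TG mice, all of the C57BL/6J strain. Shank3 TG mice carry a transgene for Shank3, a scaffold of the excitatory postsynapse, tagged with enhanced green fluorescent protein (EGFP). The promoter of the transgene was not given in the sources used here, so the cell types in which it is active cannot be stated. Each library came from 1 mouse, and each value is a normalized read count, that is, the reads of a gene divided by the size factor of the library.

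Heat shock proteins bind unfolded or partly folded proteins and help them to fold, to assemble or to be degraded. Hsp70 proteins work in cycles of ATP use, in which J-domain proteins deliver clients and exchange factors release the nucleotide, and Hsp90 acts later, on near-native clients such as kinases and steroid hormone receptors. In a stressed cell, heat shock factor 1 (Hsf1) forms trimers and binds heat shock elements, which are inverted repeats of a short GAA unit, and the stress-inducible members are then strongly transcribed. Neurons hold large amounts of the constitutive members, and these also serve synapses, where Hsc70 (Hspa8) removes clathrin from endocytosed vesicles. Of the 10 genes, 8 encode chaperones of the cytosol and nucleus. Hspd1 (Hsp60) and Hspe1 (Hsp10) encode the chaperonin of the mitochondrial matrix and its lid, so the name cytosolic does not cover these.

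The upstream sequences of 3 inducible members and the element between start sites of the chaperonin genes are shown because they hold the letters that Hsf1 is known to bind. All are from RefSeq on GRCm38.p6 and written 5′ to 3′. The upstream sequences of the 3 inducible members are on the strand of the gene and end at the base before the annotated start site. Capitals mark each match to GAANNTTC or TTCNNGAA, which are 2 GAA units facing each other or apart. Both patterns read the same on either strand. The stretches lie at chr17:34972157-34972406 (minus strand), chr17:34959239-34959488 (minus strand) and chr5:135887669-135887918 (plus strand), and the last sequence, at chr1:55088053-55088082, is given on the plus strand, on which Hspe1 lies.
Hspa1a: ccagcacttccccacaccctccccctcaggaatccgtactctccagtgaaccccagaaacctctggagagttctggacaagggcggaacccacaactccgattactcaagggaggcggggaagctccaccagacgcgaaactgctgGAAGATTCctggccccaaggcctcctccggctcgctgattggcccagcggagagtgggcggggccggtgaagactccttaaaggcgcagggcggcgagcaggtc
Hspa1b: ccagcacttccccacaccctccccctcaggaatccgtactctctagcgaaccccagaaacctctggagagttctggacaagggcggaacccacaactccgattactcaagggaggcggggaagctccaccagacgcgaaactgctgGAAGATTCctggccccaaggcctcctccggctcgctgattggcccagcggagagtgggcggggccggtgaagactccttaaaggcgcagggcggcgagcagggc
Hspb1: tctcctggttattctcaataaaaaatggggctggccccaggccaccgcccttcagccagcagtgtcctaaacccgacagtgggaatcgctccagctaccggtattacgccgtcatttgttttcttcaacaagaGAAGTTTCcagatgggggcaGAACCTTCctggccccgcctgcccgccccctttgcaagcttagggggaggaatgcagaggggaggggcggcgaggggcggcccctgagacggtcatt
Hspe1 and Hspd1: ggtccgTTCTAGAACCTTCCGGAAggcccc

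The Hspa1a and Hspa1b stretches differed at 3 of 250 positions, and each held 1 match, at -104 to -97 from the start site. Hspb1 held 2 matches, at -117 to -110 and at -97 to -90. The run of 18 bases in capitals lay between the start site of Hspe1 and 1 start site of Hspd1, and past the other start site of Hspd1. This run held 2 overlapping matches to the longer pattern of 3 units, GAANNTTCNNGAA or its reverse complement TTCNNGAANNTTC. It lay at -89 to -72 from the start of Hspe1, and the same bases, read on the other strand, lay at -144 to -127 from the start of Hspd1 that is 216 bases away and faces the other way. Hsph1 held a 2-unit match, TTCTCGAA, at -33 to -26 from its first start site, and 1 match to the 3-unit pattern, TTCTGGAAAGTTC, 36 to 48 bases past it. Neither start site of Dnajb1, nor the other start site of Hspd1, had a match within its window. Of all 32851 RefSeq promoter windows, from 250 bases before to 50 bases after the start, 15.06% held a match to the 2-unit patterns and 0.603% to the 3-unit pattern. These are matches of letters, and binding was not measured. The table used had no entry for Hspa8, Hsp90aa1 or Hsp90ab1.

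The recovered reads per library ranged from 27689589 to 36647626. Shank3, the overexpressed gene, had 29891, 28309 and 26044 in TG and 13807, 12918 and 13865 in WT mice, a mean of 28081 ± 1933.7 in TG and 13530 ± 530.68 in WT mice (SD, n = 3 each), a log2 fold change of 1.05 ± 0.06 (SE, limma adjusted P = 7.04e-05), as the labels say. It was the 1 gene of 17605 with an adjusted P value under 0.05, which is 0.00568%. The 8 medium spiny neuron markers, the defining neurons of the striatum, summed to between 89600 and 126400 and were lowest in TG replicate 1 for all 8. In that library the 10 choroid plexus markers, all with a higher mean in TG mice, summed to 15640, against 570.5 to 2012 in the other 5, with transthyretin (Ttr) the most abundant of them, and the 6 cortical neuron markers were all lowest in TG replicate 2. In bulk tissue, a change in the share of a cell type and a change in RNA per cell cannot be told apart.

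None of the 10 heat shock genes passed the test between Shank3 TG and WT striatum. Of these, 9 had a higher mean and Hspb1 a lower one, while 49.2% of all genes tested were higher. The median log2 fold change of the 10 was 0.09, against -0.0018 over all genes. The limma adjusted P value was 0.971 for 7 genes, 0.973 for Hsp90ab1 and Hsph1, and 0.985 for Hspe1. On simulated reads with 200 of 17605 genes changed, the same test recovered 56% of changes of log2 0.5 and 6% of those of 0.25. Even there it missed most small changes. It made 120 calls there and 1 in these data, so the adjustment was stricter in these data. The shares recovered are therefore not those for the 10 genes, which were not simulated on their own. At an unadjusted P value under 0.05, 1 of the 10 was higher (Hspd1) and 0 lower, where 1.98% of all genes were higher and 2.33% lower. The values of TG and WT mice did not overlap for 1 of the 10, again Hspd1, against 5.06% of all genes in that direction and 5.05% in the other.

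**Figure D1:**
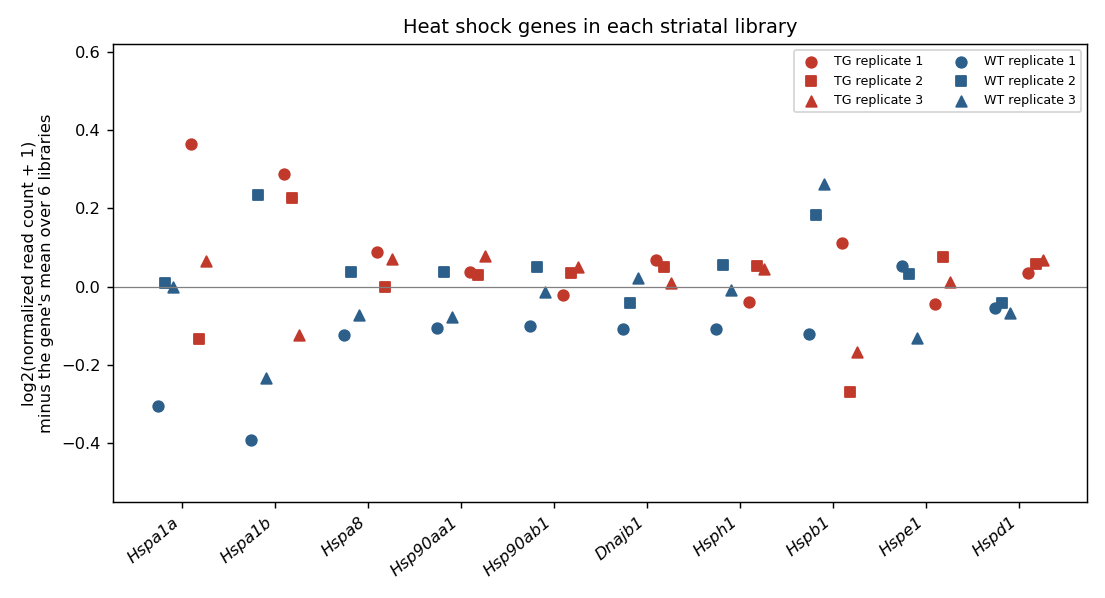
Each point is 1 library and shows log2(normalized read count + 1) of a gene minus the mean of that gene over the 6 libraries. TG mice are in red, WT mice in blue, and the shape gives the replicate. WT replicate 1 is the lowest point for the 7 genes from Hspa1a to Hsph1, and only for Hspd1 do the red and blue points separate.

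The inducible Hsp70 genes Hspa1a (ENSMUSG00000091971, chr17:34969190-34972156, minus strand) and Hspa1b (ENSMUSG00000090877, chr17:34956436-34959238, minus strand) are intronless neighbours that encode nearly the same protein, which is scarce in unstressed cells. Hspa1a reached a normalized count of 112, 78.7 and 90.6 in TG replicates 1, 2 and 3, against 69.8, 87.0 and 86.4 in WT replicates 1, 2 and 3. TG replicate 1 was highest and WT replicate 1 lowest, and the groups overlapped in the middle. The log2 fold change was 0.20 (95% CI -0.17 to 0.57), and 0.06 without TG replicate 1. That library also had by far the most choroid plexus RNA, and the part of this in the value of Hspa1a was not tested. Hspa1b had 208, 199 and 156 in TG mice, compared with 129, 200 and 144 in WT mice. Here WT replicate 2 was as high as the TG libraries 1 and 2, so the groups overlapped again, with a log2 fold change of 0.26 (95% CI -0.12 to 0.64), the largest of the 10 in size. It ranged from 0.13 without WT replicate 1 to 0.44 without WT replicate 2. The interval reached from 0.92 to 1.56 times the WT level.

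These were also the members that varied most between mice. The SD within genotype was 0.28 on the log2 scale for Hspa1b and 0.22 for Hspa1a, where the counting of reads alone gives about 0.11 and 0.16. The counts behind them were small, from 61 to 130 reads per library for Hspa1a and from 113 to 242 for Hspa1b. Moreover, 49.9% of the 100-base windows of Hspa1b and 47.1% of those of Hspa1a occur in both transcripts. The sources used here do not say how a read that fits both genes was counted, so the split of reads between the pair is uncertain. Hspa1a also shares 564 exon bases with Gm20481, a gene model on the opposite strand that was listed at 0 in all libraries.

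The root mean square difference between the centred log2 profiles of the pair over the 6 libraries was 0.22. Counting of reads alone gives an SD of about 0.11 for Hspa1b and 0.16 for Hspa1a. Whether the profiles differ beyond this was not tested. The genes nearest to each were others. Nearest to Hspa1b were Stk33 (0.065), Trpc5 (0.067), Cfap97d2 (0.069), C330011M18Rik (0.073) and Ggn (0.077). Nearest to Hspa1a were Scarf1 (0.038), Cd274 (0.048), Rab37 (0.049), Gpnmb (0.053) and C8g (0.054). These distances are smaller than the counting SD of Hspa1b or Hspa1a itself. They are a description over 6 libraries of the closest genes picked from 17605, and shared regulation was not tested.

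Hspa8 (ENSMUSG00000015656, chr9:40800984-40810087, plus strand) encodes Hsc70, the constitutive Hsp70 and the clathrin-uncoating ATPase of synapses. The normalized count was 46278, 43496 and 45762 in TG mice, compared with 39952, 44716 and 41401 in WT mice. WT replicates 1 and 3 lay under all TG libraries, and WT replicate 2 lay among them. The log2 fold change was 0.11 (95% CI -0.03 to 0.24), and 0.07 without WT replicate 1. Pseudogenes resemble it closely: 57.1% of its 100-base windows occur in a transcript of another gene, most often Gm15459, which was listed at 0 in every library. The small nucleolar RNAs Snord14c, Snord14d and Snord14e lie within it on the same strand and were listed at 0 as well.

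Dnajb1 (ENSMUSG00000005483, chr8:83608193-83612653, plus strand) encodes Hsp40, a stress-inducible J-domain protein that stimulates the ATPase of Hsp70. It had 1587, 1569 and 1524 in TG mice, compared with 1404, 1470 and 1538 in WT mice. WT replicate 3 lay just above TG replicate 3, the only overlap, and the log2 fold change was 0.09 (95% CI -0.03 to 0.20), and 0.05 without WT replicate 1. Hsph1 (ENSMUSG00000029657, chr5:149614287-149636376, minus strand) encodes Hsp105, an Hsp110 protein that acts as nucleotide exchange factor for Hsp70. Its values were 11670, 12424 and 12367 in TG mice, compared with 11119, 12454 and 11913 in WT mice. The highest and the lowest library were both WT, and the log2 fold change was 0.04 (95% CI -0.08 to 0.16). Without WT replicate 1 it was -0.0037. Neither gene, nor Hsp90ab1, shares a 100-base window with a transcript of another gene.

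Hsp90aa1 (ENSMUSG00000021270, chr12:110690605-110702728, minus strand) encodes the more inducible of the cytosolic Hsp90 proteins and Hsp90ab1 (ENSMUSG00000023944, chr17:45567775-45573271, minus strand) the more constant one. Hsp90aa1 stood at 26517, 26416 and 27293 in TG mice, compared with 24043, 26512 and 24494 in WT mice. As for Hspa8, WT replicates 1 and 3 were the low libraries and WT replicate 2 was at the TG level, for a log2 fold change of 0.10 (95% CI -0.02 to 0.21). Hsp90ab1 had 45837, 47642 and 48090 in TG mice, compared with 43377, 48112 and 46017 in WT mice. The WT libraries held both the highest and the lowest of these values. TG and WT differed by 0.04 on the log2 scale (95% CI -0.08 to 0.17), and by 0.0039 without WT replicate 1.

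Per kb of exon, the ratio of Hsp90aa1 to Hsp90ab1 was 0.431, 0.413 and 0.423 in TG mice, compared with 0.413, 0.411 and 0.397 in WT mice. All TG ratios were above all WT ratios, but TG replicate 2 (0.4133) only just exceeded WT replicate 1 (0.4131). The mean difference was 0.054 on the log2 scale, and 0.036 without WT replicate 3. Over all 6 libraries, a two-sided exact permutation test gave P = 0.1, and 0.3 after adjustment over the 3 ratios tested. The value of 0.1 is the smallest that 3 against 3 mice allow, and it rests on this near-tie. A caution applies to Hsp90aa1, since 40.7% of its 100-base windows occur in transcripts of other genes. The main one is Gm12346, a transcribed processed pseudogene with 216, 235 and 232 in TG mice, compared with 168, 174 and 188 in WT mice, with a log2 fold change of 0.37 (limma adjusted P = 0.971). Gm12346 was named after its values were seen, and whether its reads come from Hsp90aa1 was not tested.

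Hspb1 (ENSMUSG00000004951, chr5:135887919-135889563, plus strand) encodes Hsp25, an ATP-independent small heat shock protein that holds unfolding proteins and binds actin. It was the member with a lower mean in TG mice, with 147, 112 and 121 against 125, 154 and 163 in WT mice. TG replicate 1 and WT replicate 1 each sat with the other genotype. TG differed from WT by a log2 fold change of -0.22 (95% CI -0.54 to 0.10), which ranged from -0.14 without TG replicate 2 to -0.33 without WT replicate 1. Between 100 and 171 reads per library stood behind these values. Hspb1 is known from blood vessels and glia of the brain, among other cells. The 6 endothelial markers, 5 of them with a log2 fold change below 0, summed to 6286, 5853 and 5989 in TG and 6802, 5667 and 6504 in WT mice. The 6 ependymal markers, 4 of them lower, summed to 778.2, 632.8 and 584.2 in TG and 648.9, 953.9 and 600.8 in WT mice. The 6 microglial markers were all lower, where 49.2% of all genes tested were higher. For 3 of them the genotypes did not overlap, against 5.05% of all genes in that direction, and none passed the test. The microglial markers summed to 9866, 10750 and 10210 in TG and 10800, 11100 and 11200 in WT mice. The part of these cell types in the value of Hspb1 was not tested. Of its 100-base windows, 44.0% occur in Hsp25-ps1, a pseudogene listed at 0 in every library.

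Hspd1 (ENSMUSG00000025980, chr1:55077835-55088243, minus strand) and Hspe1 (ENSMUSG00000073676, chr1:55088132-55091307, plus strand) lie head to head and share the element shown above. Hspd1 had 4972, 5048 and 5085 in TG mice, compared with 4666, 4713 and 4631 in WT mice. All TG libraries were above all WT libraries, the only member for which this held. The log2 fold change was 0.11 (95% CI 0.02 to 0.20, limma adjusted P = 0.971). The mean was 1.08 times that of WT mice (95% CI 1.01 to 1.15). The SD within genotype was 0.015 on the log2 scale, in the lowest 0.273% of all genes and below the 0.021 that counting alone gives, and the unadjusted P value in limma lay above 0.05 without TG replicate 3 (0.0736) or without WT replicate 3 (0.0660).

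Hspe1 overlapped between the genotypes. It had 1279, 1390 and 1331 in TG mice, compared with 1369, 1350 and 1206 in WT mice. The TG libraries lay within the WT range or just above it, and the log2 fold change was 0.03 (95% CI -0.11 to 0.17). Its sign turned without TG replicate 2 (-0.0010) or without WT replicate 3 (-0.028). The ratio of Hspe1 to Hspd1 per kb was 0.829 ± 0.030 in TG and 0.877 ± 0.054 in WT mice (SD, n = 3 each). They overlapped between the genotypes (difference of -0.079 on the log2 scale, two-sided exact permutation P = 0.3, adjusted P = 0.45, where 0.1 is the smallest possible), and the difference ranged from -0.045 without WT replicate 1 to -0.13 without WT replicate 3. The genes share 112 exon bases on opposite strands. The kit used does not mark strand, so reads there cannot be told apart unless pairs extend beyond them.

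**Figure D2:**
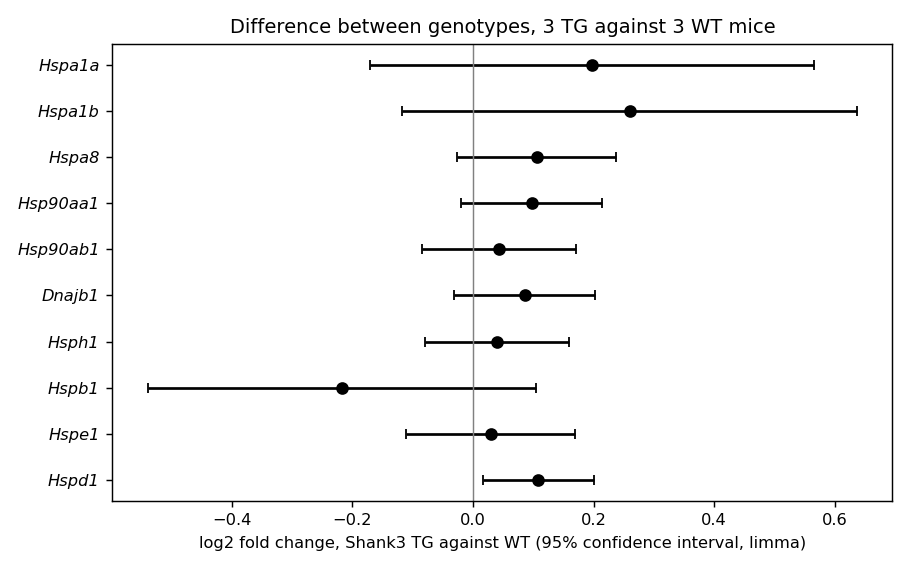
Points give the log2 fold change of Shank3 TG against WT for each gene, from limma over 3 TG and 3 WT mice, and bars the 95% confidence interval. Only the interval of Hspd1, from 0.02 to 0.20, leaves out 0, and those of Hspa1a, Hspa1b and Hspb1 are the widest.

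The intervals differed in width with the level of the gene. For the 7 most abundant of the 10 genes (Hspa8, Hsp90aa1, Hsp90ab1, Dnajb1, Hsph1, Hspe1 and Hspd1), no interval reached above 1.18 or below 0.926 times the WT level. For Hspa1a, Hspa1b and Hspb1 the intervals ran from 0.888 to 1.48, 0.922 to 1.56 and 0.688 to 1.07. The median SD within genotype over the 10 genes was 0.068 on the log2 scale, against 0.108 over all genes tested.

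Per length, the members ranged from among the most abundant to among the scarcer transcripts of the striatum. Hsp90ab1 had 18460 normalized reads per kb of exon (mean over the 6 libraries) and Hspa8 18210, which were ranks 22 and 23 of 14910 genes. Their order turned with the library, with Hsp90ab1 above Hspa8 in 4 of 6, so these neighbours did not differ beyond their spread. Next came Hsp90aa1 with 7654 (rank 110), Hsph1 with 2840 (rank 503), Hspd1 with 2003 (rank 815) and Hspe1 with 1706 (rank 1020). Dnajb1 followed with 473 per kb (rank 4212), Hspb1 with 133 (rank 9108), Hspa1b with 61.6 (rank 11085) and Hspa1a with 29.4 (rank 12474). Each of these was above the next in 6 of 6 libraries.

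The inducible and constitutive Hsp70 genes thus lay far apart in level. The summed Hspa1a and Hspa1b levels per kb were 0.0052 ± 0.00065 of the Hspa8 level in TG and 0.0047 ± 0.00061 in WT mice (SD, n = 3 each). Without division by length, the ratio of their summed values to Hspa8 differed by 0.14 on the log2 scale (two-sided exact permutation P = 0.5, adjusted P = 0.5). It differed by 0.049 without WT replicate 1 and by 0.24 without TG replicate 3. Per kb, the Hspa8 level was 192 times that of the pair in TG mice, compared with 211 times in WT mice. Levels of genes with near-identical copies depend on how shared reads were counted.

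**Figure D3:**
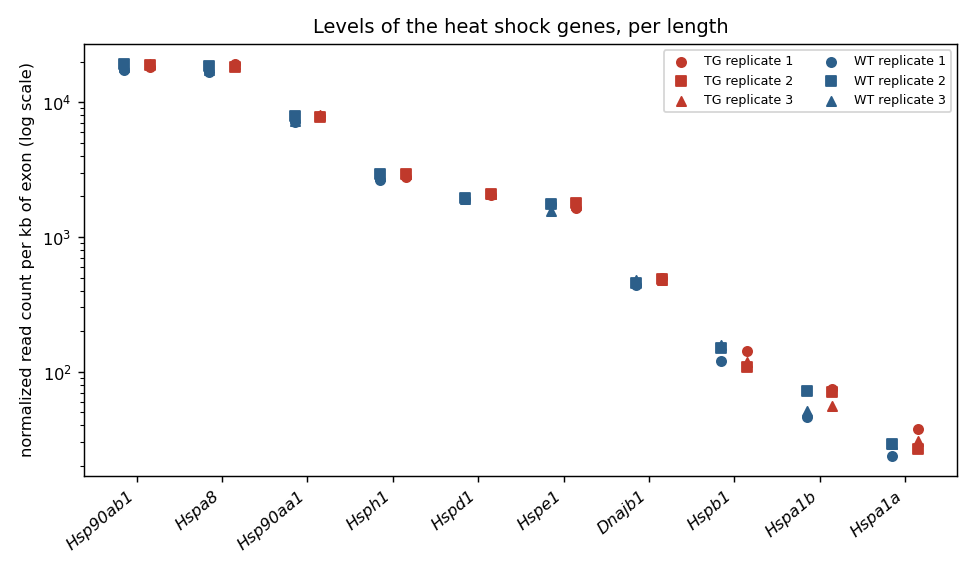
Each point is the normalized read count per kb of exon of a gene in 1 library, on a log scale, with WT mice in blue to the left and TG mice in red to the right. Genes are ordered by their mean, from 18460 per kb for Hsp90ab1 to 29.4 for Hspa1a, and the libraries of a gene lie close together compared with the steps between most genes.

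Values of WT replicate 1 stood apart for part of the members. WT replicate 1 was the lowest of the 6 libraries for 7 of the 10 genes, which were those of the Hsp70 and Hsp90 system (Hspa1a, Hspa1b, Hspa8, Hsp90aa1, Hsp90ab1, Dnajb1 and Hsph1), and it was the lowest for 16.5% of all genes tested. The median of the 10 centred log2 values was -0.11 in WT replicate 1, -0.04 in WT replicate 3 and 0.04 in WT replicate 2, against 0.05, 0.04 and 0.05 in TG replicates 1, 2 and 3. The 10 genes made up 0.398% of all normalized reads in WT replicate 1, 0.445% and 0.418% in WT replicates 2 and 3, and 0.441%, 0.442% and 0.450% in TG mice. WT replicate 2 was at the TG level by either measure. Without WT replicate 1, the median log2 fold change of the 10 was 0.07 and 8 of 10 were higher, without any passing the test.

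The same library was lowest for 7 of 8 glucocorticoid-induced genes, which report stress hormone signalling, and for 16.5% of all genes tested. Fkbp5 is in this list and also among the Hsp90 co-chaperones below. Of the 8, 7 had a higher mean in TG mice, where 49.2% of all genes did, with a median log2 fold change of 0.13. None passed the test. Per1, the most abundant of them, went the other way, with 4901, 4948 and 5358 in TG and 4526, 4826 and 6316 in WT mice (log2 fold change -0.03). Their sum was 12440 in WT replicate 1, 14560 and 16430 in WT replicates 2 and 3, and 15060, 16120 and 15910 in TG mice. Sgk1, a kinase induced by glucocorticoids, had 3345 in WT replicate 1 and between 4626 and 5687 in the other 5 libraries. Tsc22d3 (Gilz), a transcriptional regulator induced by glucocorticoids, had 2316, 2346 and 2326 in TG and 1841, 2079 and 2083 in WT mice (log2 fold change 0.22, limma adjusted P = 0.971). It was the 1 gene of the 8 without overlap, against 5.06% of all genes in that direction. The 12 immediate early genes, which report recent neuronal activity, summed to 46480, 36430 and 39630 in TG and 37290, 38080 and 48100 in WT mice, so WT replicate 1 was not the lowest there. The cold-inducible Rbm3 and Cirbp summed to 3739, 3735 and 3789 in TG and 3870, 3400 and 3874 in WT mice. The part of any of these in the values of the heat shock genes was not tested.

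The wider chaperone network was described through 71 further genes in 7 groups, of which 68 were tested. None passed the test, with limma adjusted P values of at least 0.971. Their median log2 fold change was 0.05, with 49 higher and 19 lower. At an unadjusted P value under 0.05, 4 were higher and 1 lower, against 1.98% and 2.33% of all genes. Without overlap between genotypes, 13 were higher and 1 lower, against 5.06% and 5.05% of all genes. WT replicate 1 was the lowest library for 25 of the 68, and for 16.5% of all genes.

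All 8 subunits of TRiC, the cytosolic chaperonin that folds actin and tubulin, had higher values in TG mice, where 49.2% of all genes did, with a median log2 fold change of 0.07. None passed the test. The genotypes did not overlap for 5 of the 8, against 5.06% of all genes in that direction. The 8 genes were measured in the same mice and listed with earlier results of these data known. These counts are therefore a description and not a test. Cct8 had 4451, 4313 and 4497 in TG mice, compared with 4094, 4016 and 3950 in WT mice (log2 fold change 0.14, limma adjusted P = 0.971), and Cct4 had 2658, 2749 and 2726 against 2489, 2575 and 2475 (0.11). Cct7, the most abundant subunit, overlapped between genotypes, with 4742 to 4949 in TG mice, compared with 4637 to 4852 in WT mice. Here WT replicate 3 was the lowest library for 5 of 8 and WT replicate 1 for 2.

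The 12 Hsp90 co-chaperones included 10 with a higher and 2 with a lower mean. Chordc1, a heat-inducible partner of Hsp90, had 1841, 1822 and 1936 in TG mice, compared with 1507, 1750 and 1740 in WT mice (log2 fold change 0.17). The groups did not overlap, and the lowest value was again that of WT replicate 1. Stip1 (Hop), the adaptor between Hsp70 and Hsp90 and the most abundant of the group, had 4795 to 4925 in TG and 4528 to 4859 in WT mice.

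The 12 J-domain co-chaperones had 9 higher means and 3 lower. Dnajc5, the cysteine-string protein of synaptic vesicles and the most abundant of them, had 11620, 11720 and 12340 in TG mice, compared with 11280, 11370 and 11480 in WT mice, with a log2 fold change of 0.06. The 16 Hsp70 relatives and exchange factors tested had 9 higher and 7 lower, with a median of 0.01. Hspa4, an Hsp110 protein and the most abundant of these, had 8864 to 9038 in TG and 8023 to 8765 in WT mice. Hspbp1, an exchange factor, had 1537, 1489 and 1571 in TG and 1646, 1640 and 1624 in WT mice (log2 fold change -0.10), without overlap. Stub1 (Chip), a ubiquitin ligase for Hsp70 clients, had 1129, 955 and 982 in TG and 1189, 1081 and 1101 in WT mice (-0.14).

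Among 10 chaperones and related proteins of the endoplasmic reticulum and mitochondria, 7 were higher, 4 of these without overlap. Of all genes, 5.06% lacked overlap in that direction, and none of the 10 passed the test. Hspa5 (BiP), the Hsp70 of the endoplasmic reticulum and the most abundant of them, had 9350, 7831 and 8286 in TG mice, compared with 6373, 8524 and 7027 in WT mice (log2 fold change 0.22). WT replicate 2 exceeded the lower TG libraries, and WT replicate 1 was again lowest. Of the 6 small heat shock proteins tested beside Hspb1, 4 were higher and 2 lower. Cryab (alpha-B crystallin), an oligodendrocyte and astrocyte chaperone, had 2866, 3000 and 2902 in TG and 2948, 3347 and 3328 in WT mice (-0.13), with WT replicate 1 within the TG range. The 6 oligodendrocyte markers, 3 of them lower, summed to between 240000 and 249100 in TG and between 242500 and 274300 in WT mice. The 6 astrocyte markers, 3 of them lower, summed to between 27800 and 33790 in TG and between 28940 and 34540 in WT mice. The part of these cell types in the values of Cryab and Hspb1 was not tested.

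The regulators gave no common direction, with 2 of 4 higher and a median of -0.02. Hsf1, the main heat shock factor, had 1410, 1224 and 1226 in TG and 1299, 1331 and 1362 in WT mice, with a log2 fold change of -0.05. TG replicate 1 was the highest of the 6 libraries and the other TG libraries the lowest. Hsbp1, a binding partner of Hsf1 and the most abundant of the group, had 4516 to 4572 in TG and 4387 to 4691 in WT mice.

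**Figure D4:**
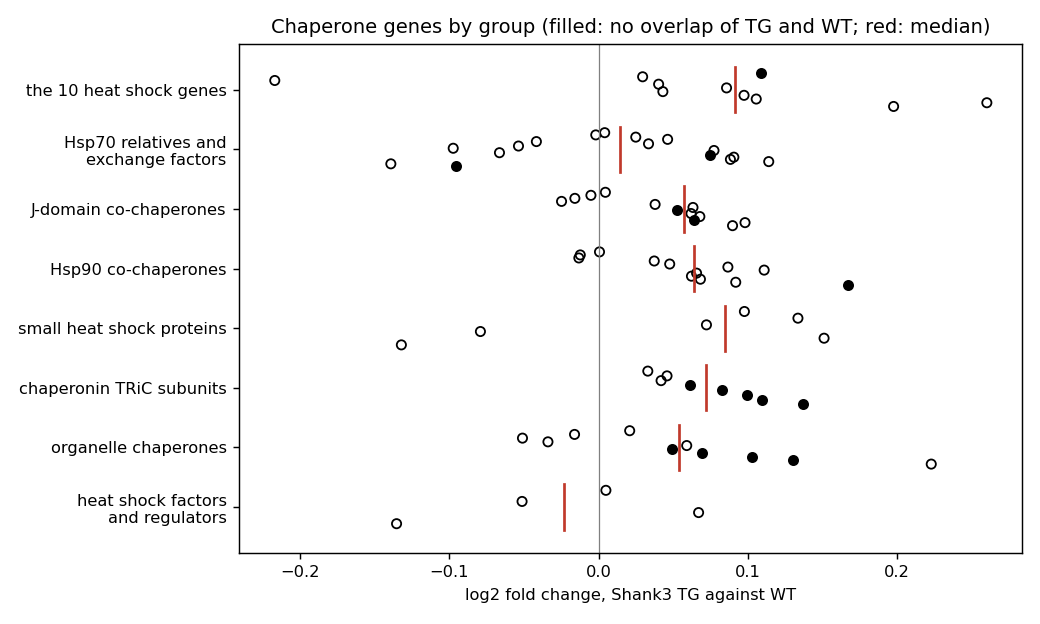
Each point is the log2 fold change of 1 gene, Shank3 TG against WT, for the 10 heat shock genes and the 7 groups of related genes. Filled points are genes whose TG and WT values did not overlap, and red bars mark the median of a group. The TRiC subunits all lie to the right of 0 with 5 of 8 filled, and no gene in the plot had an adjusted P value under 0.05.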

How the data were processed

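Striatal RNA-seq libraries of 3 WT and 3 Shank3 TG mice were grouped by the sample titles. Per the labels and methods, the authors prepared TruSeq libraries and trimmed reads with Trimmomatic 0.35. They aligned the reads with TopHat2 2.1.0 to GRCm38 and counted genes with HTSeq. The annotation release and the strand setting were not given in the sources used here. The deposited table holds a signal per gene, the read count divided by a DESeq2 size factor. Dividing by the value of 1 read gave whole reads for 100% of values (within 0.01), from 27689589 to 36647626 per library. Counting error is largest for genes with few reads.

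Values were tested as log2(value + 1) in limma 3.58.1 (R 4.3.3), with the trend option, for genes whose mean value was 10 or more, and P values were adjusted by Benjamini-Hochberg, with a threshold of 0.05. Fold changes are on that scale, which understates those of low genes. The test was checked on simulated reads, with 200 of 17605 genes changed. It made 120 calls, 4 of them false. In the data it made 1 call, so the cut on unadjusted P values was stricter there than in the simulation. It recovered 92% of changes of log2 1, 56% of those of 0.5 and 6% of those of 0.25. Ratios are shown per kb, while log2 ratios of the values without division by length were compared by exact permutation (SciPy 1.17.1). No set test was run. Positions are from GENCODE M21, promoters from RefSeq. Per-kb levels divide by the exon bases of the coding transcripts.

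Alternatives were edgeR 4.0.16, DESeq2 1.42.0 and limma-voom on the recovered reads, DESeq2 with a prior and an empirical null, other scalings, filters and pseudocounts, each library left out, and the replicate number as a block. The 10 genes, the related gene groups and the marker lists were chosen with earlier results of these data known. Named genes were the 10, Shank3, the 3 related genes of smallest P value in each direction, the most abundant of each group, and the 5 nearest profiles of the 2 most variable members. Genes named for other reasons were chosen after their values were seen.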

Additional observations from a re-analysis of the deposited data

How the results depend on the processing

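None of the 10 heat shock genes was called under any alternative run, and 8 or 9 of them were higher in TG mice throughout. At an unadjusted P value under 0.05, the count of the 10 was 1 with edgeR (771 of all 17605 genes), with DESeq2 (431) and with limma-voom (746). It was 3 with a prior and an empirical null (1069 of 17605) and 4 without WT replicate 2 (652 of 17583). It was 0 without TG replicate 3 (505 of 17631) or without WT replicate 3 (587 of 17610). The number of all genes called was 1 in the test reported, 7 with DESeq2 on the recovered reads, 15 with DESeq2 with a prior and an empirical null, 5 without the filter on low values, and 1 to 2 with 1 library left out. On simulated reads, the setting with an empirical null made more false calls than its threshold allows. The number of related chaperone genes at an unadjusted P value under 0.05 was 5, where 758 of all 17605 genes were under it, and 1 to 7 with 1 library left out. It was 1 without TG replicate 3 (505 of all genes), 3 without WT replicate 1 (705) and 3 without WT replicate 3 (587). It was 7 without TG replicate 1 (1324) and 7 without WT replicate 2 (652). The sign turned for Hspe1 without TG replicate 2 (-0.00103) and without WT replicate 3 (-0.0282), and for Hsph1 without WT replicate 1 (-0.00372). With each library left out in turn, Hspe1 ranged from -0.0282 to 0.0634 and Hsph1 from -0.00372 to 0.0781 on the log2 scale. Of the other values of single members under an alternative, 167 kept their direction. The median log2 fold change of the 10 ranged from 0.07 to 0.10 with 1 library left out, and it was 0.05 with a prior and an empirical null. The replicate numbers are not said to pair the mice, and deviations of same-numbered libraries correlated by 0.047, 0.016 and 0.093, and not every library correlated best with its own number. With the replicate number as a block, 1 gene and 0 of the 10 members were called, with a smallest member adjusted P value in limma of 0.851. Within genotype, the SD was below that of counting alone for Hspd1 and above it for the other members. For Hspa8 it was 0.068 against 0.0069, and for Hspa1a 0.22 against 0.16. How much of the spread of any member comes from depth was not tested.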
